A study of Mus musculus with 2 samples.

Results

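The 88 genes described here encode the SNARE and synaptotagmin machinery of exocytosis, the step in which a vesicle fuses with the plasma membrane and releases its content. They were chosen by name, as the protein-coding genes whose symbols begin with Syt, Stx, Vamp, Snap, Stxbp, Cplx, Rims or Doc2 and a digit or letter, or with Rab3, Unc13 or Cadps, out of 21901 genes with a protein-coding transcript in the table that the rule used. The rule uses names and no measured value, but it was set with earlier results of these data known. The prefix rule also takes in 12 Rab GTPases of other families (Rab30 to Rab39b) and Snap91, a clathrin adaptor that is no SNARE, and both are kept apart below.

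The RNA came from the adrenal gland of 2 adult female mice in 1 group, aged 8 to 10 months, from a cross of 5xFAD and CAST. The 5xFAD strain carries human transgenes, with mutations of familial Alzheimer's disease, under the neuronal Thy1 promoter, and CAST is a wild-derived inbred strain. Whether the animals sequenced carried the transgenes is not given in the labels, both mice carry the cross, and no group without it was analysed here. They are named mouse 2 and mouse 1 by the number of the replicate. That they are separate animals rests on these replicate numbers. Both mice have the same donor identifier in the labels, so p-values between them measure only the difference between 2 libraries, which may be technical.

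In regulated exocytosis a vesicle SNARE (VAMP) zippers with a syntaxin and a SNAP-25 type SNARE of the target membrane into a 4-helix bundle. Munc18-type proteins (Stxbp), Munc13, CAPS and RIM proteins and Rab3 GTPases prepare the vesicle, complexins clamp and promote the last step, and synaptotagmins and Doc2 proteins sense calcium. Chromaffin cells of the adrenal medulla release catecholamines and peptides from dense-core granules in this way, and they have long served as a model of it. Steroids of the cortex are not stored in such granules, whereas syntaxins and VAMPs of the Golgi and endosomes work in every cell.

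Depth was 32192201 expected counts over all genes in mouse 2, and 36558609 in mouse 1. Of the counts in nuclear protein-coding genes, the 88 genes took 0.334% in mouse 2, with a 95% Wilson interval from 0.332% up to 0.337%, while mouse 1 gave 0.335% with an interval from 0.333% up to 0.337%. Both intervals cover counting error only. Levels are in TPM, a transcript's share of all transcripts of the library, which is scaled to length and allows genes to be compared. Nuclear protein-coding genes took 32.3% of all TPM in mouse 2 and 29.5% in mouse 1, so TPM of most genes stands higher in mouse 2 without a like difference in scaled counts. The 8 fixed cortex markers and the 12 fixed chromaffin markers each passed 1 TPM in both mice. The chromaffin markers summed to 2655 TPM in mouse 2 and 2819 TPM in mouse 1. Of 8 markers of central and other neurons, 2 reached 1 TPM, Chat had no count in either mouse, and the list summed to 6.02 and 6.21 TPM for mouse 2 and mouse 1. The lists of lymphocytes and mast cells had no gene at 1 TPM in both mice. All 6 macrophage markers passed it and summed to 200 TPM in mouse 2 and 159 TPM in mouse 1. All 6 endothelial markers did too, with sums of 164 and 140 TPM, and 2 of 5 platelet markers did.

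Most of the exocytosis genes were measured in the gland. Of the 88 genes, 65 (73.9%) reached 1 TPM in both mice, beside 54.1% of 22015 nuclear protein-coding genes. Of these, 36 averaged 10 TPM or more and 29 averaged between 1 and 10 TPM. The genes at the top were the vesicle SNAREs Vamp2 and Vamp8 and the RIM protein Rims4. Cplx3, Cplx4, Stx19 and Syt8 had 0 counts in both mice in the first quantification. A count of 0 allows up to 3 counts, or 0.0932 CPM in mouse 2 and 0.0821 CPM in mouse 1. In the second quantification Stx19 had 0.016 TPM in mouse 2 and 0.035 TPM in mouse 1, and Syt8 had 0 and 0.018 TPM. In RNA of the whole gland, fewer cells of a type and less RNA per cell cannot be told apart.

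**Figure D1:**
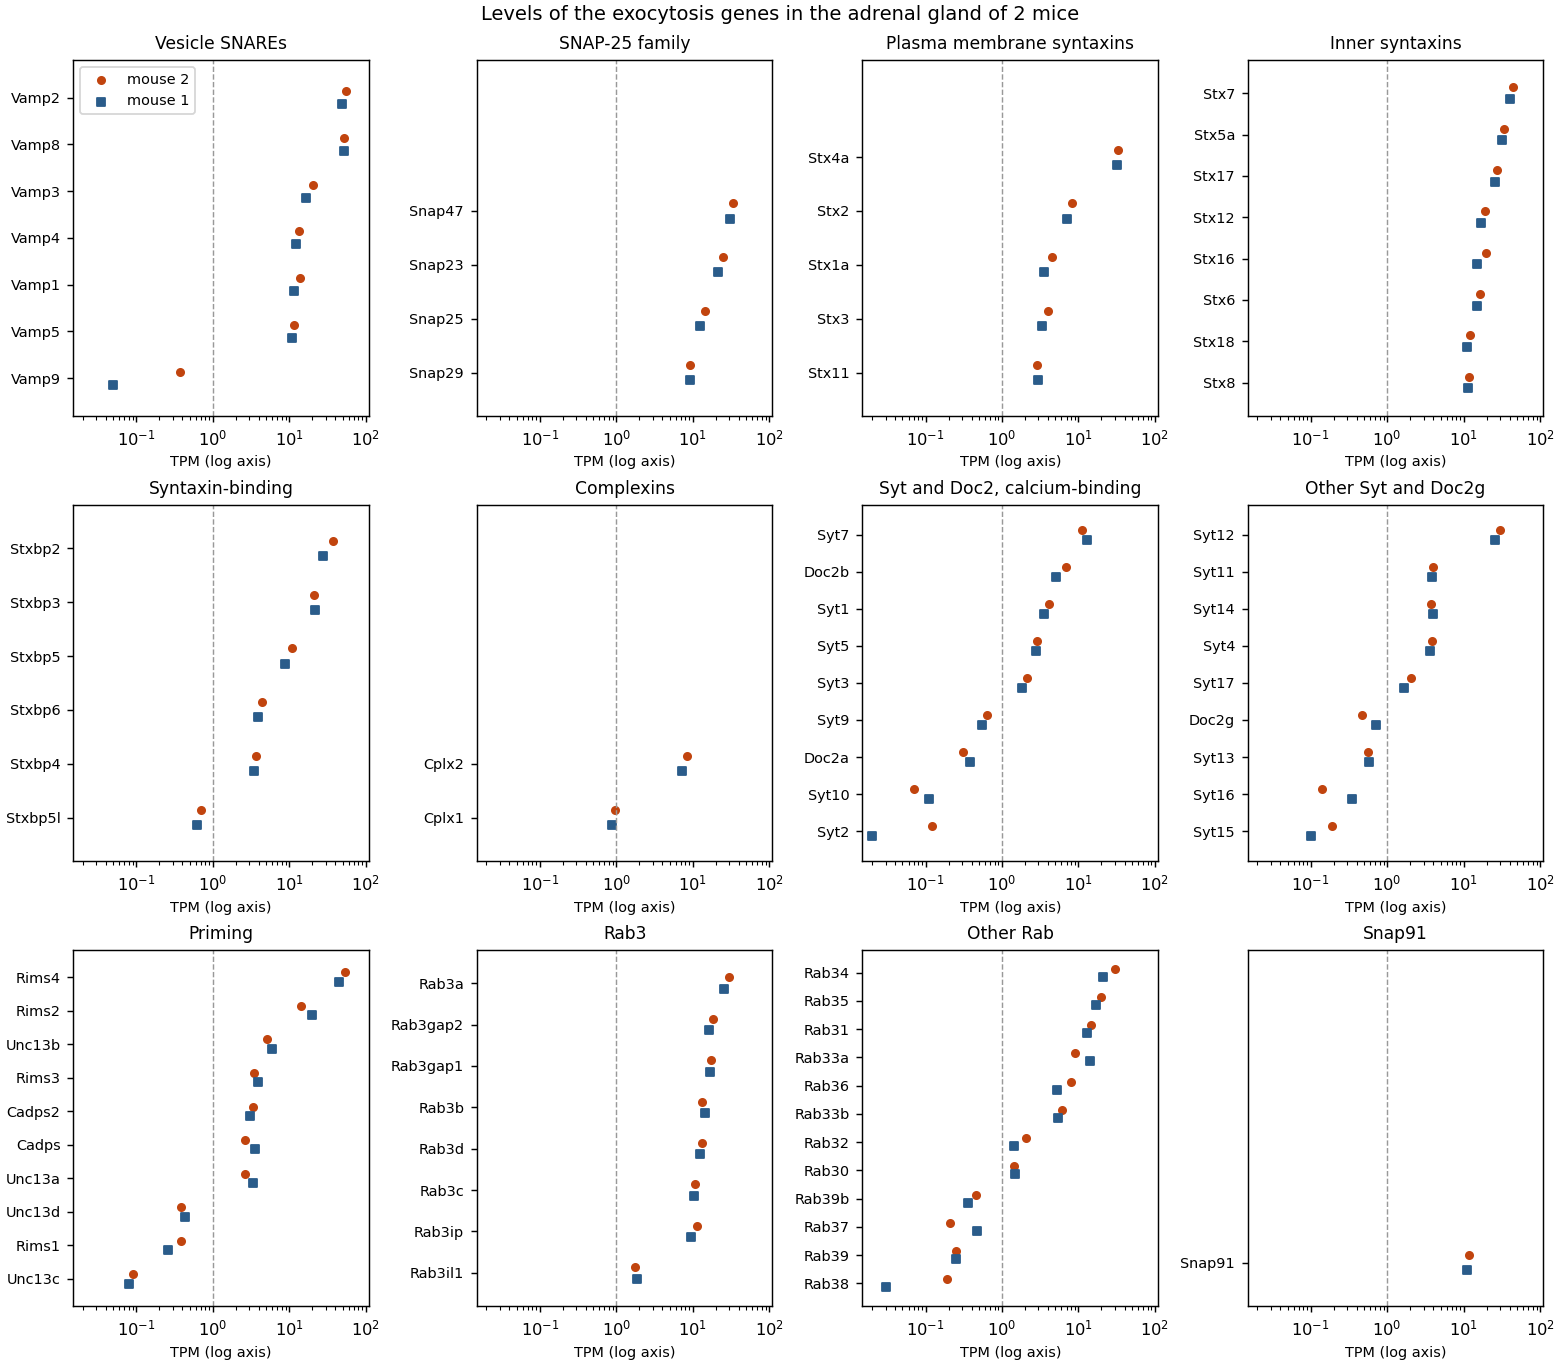
TPM of 81 of the exocytosis genes above 0 in both mice (2 more are not drawn), on a log axis, in 12 panels by role; circles are mouse 2, squares are mouse 1, and the dashed line marks 1 TPM and inner syntaxins are those of endosomes, Golgi and endoplasmic reticulum. The inner syntaxins and the Rab3 group lie wholly to the right of the line, while the complexins and synaptotagmins are spread on both sides of it.

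Among the vesicle SNAREs, Vamp2, the synaptobrevin of synaptic vesicles and chromaffin granules (chromosome 11, 69088490 to 69092384, mm10), had 55.7 TPM in mouse 2 and 49.0 TPM in mouse 1. Vamp8, which serves late endosomes and secretory granules of exocrine and blood cells, had 52.1 TPM in mouse 2 and 51.5 TPM in mouse 1. Mean levels of the pair in the first quantification, 52.4 ± 4.7 TPM for Vamp2 and 51.8 ± 0.45 TPM for Vamp8 (SD, n = 2), differed by less than their spread. In the second, Vamp8 was above Vamp2, with 55.4 against 51.5 TPM in mouse 2 and 53.5 against 43.7 TPM in mouse 1. Vamp3, the broadly expressed cellubrevin, had 20.4 TPM in mouse 2 and 16.5 TPM in mouse 1. Vamp4, which cycles between the trans-Golgi network and endosomes, had 13.6 TPM in mouse 2 and 12.4 TPM in mouse 1. These middle levels were close to those of Vamp1, the second synaptobrevin, with 13.9 TPM in mouse 2 and 11.5 TPM in mouse 1. Vamp5, described in muscle, had 11.7 TPM in mouse 2 and 10.8 TPM in mouse 1. Vamp9 was the 1 member of the group below 1 TPM, with 7 counts in mouse 2 and 1 in mouse 1.

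Vamp2 and Vamp3 have closely related coding sequences, so the split of reads between them matters for their levels. Exon 3 of each gene, 159 bases long and wholly coding in both, is printed from the GENCODE M21 transcripts (mm10), 5′ to 3′, with the 28 bases at which they differ in capitals (82.4% identity). The Vamp2 exon lies at chr11:69089731-69089889 on the plus strand and the Vamp3 exon at chr4:151050917-151051075 on the minus strand.
Vamp2-201: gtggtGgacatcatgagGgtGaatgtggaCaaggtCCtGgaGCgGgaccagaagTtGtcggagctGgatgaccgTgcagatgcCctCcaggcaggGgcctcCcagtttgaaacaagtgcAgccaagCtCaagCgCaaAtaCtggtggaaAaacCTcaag
Vamp3-201: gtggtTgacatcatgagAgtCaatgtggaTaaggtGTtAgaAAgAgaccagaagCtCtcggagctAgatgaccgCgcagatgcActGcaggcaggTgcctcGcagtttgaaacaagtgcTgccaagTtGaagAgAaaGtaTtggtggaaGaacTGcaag
The longest run that both whole transcripts share is the 17 bases cagtttgaaacaagtgc within this exon. The deposited posterior SD of the count was 0 for both genes in both mice, and both had whole counts. Of the summed TPM of the pair, Vamp2 took 73.2% in mouse 2 and 74.8% in mouse 1.

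All 4 genes of the SNAP-25 family were present. Snap47, a broadly expressed member, led with 33.2 TPM in mouse 2 and 31.0 TPM in mouse 1. Snap23, which serves constitutive fusion in most tissues, had 24.7 TPM in mouse 2 and 21.1 TPM in mouse 1. Snap25, the partner of syntaxin 1 in neurons and chromaffin cells (chromosome 2, 136713453 to 136782428), had 14.5 TPM in mouse 2 and 12.5 TPM in mouse 1. Snap25 was thus the smaller part of its pair with Snap23, at 37.1% of the pair's TPM in mouse 2 and 37.3% in mouse 1. These shares count all transcripts, coding or not. Protein-coding ones took 98.9% of Snap25 TPM in mouse 2 and 97.3% in mouse 1, but 55.3% and 60.7% of Snap23 TPM. The shares of the pair therefore do not give its order in coding transcripts alone, which was not compared. Snap29, which acts on endosomes and autophagosomes, was the lowest of the family, with 9.29 TPM in mouse 2 and 9.31 TPM in mouse 1.

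Snap25 transcripts carry either of a pair of mutually exclusive forms of exon 5. The upstream one belongs to the SNAP25a form, known from neuroendocrine cells and embryonic brain, and the downstream one to SNAP25b, the main form of adult brain. Both are 118 bases of coding sequence and differ at 31 positions (73.7% identity), shown in capitals in the GENCODE M21 sequences (mm10, plus strand, 5′ to 3′). Snap25-202 holds the upstream exon, at chr2:136769743-136769860, and Snap25-201 the downstream exon, at chr2:136770057-136770174.
Snap25-202: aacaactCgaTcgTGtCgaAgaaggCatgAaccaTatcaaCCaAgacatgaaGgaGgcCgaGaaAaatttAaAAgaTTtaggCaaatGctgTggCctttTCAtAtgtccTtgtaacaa
Snap25-201: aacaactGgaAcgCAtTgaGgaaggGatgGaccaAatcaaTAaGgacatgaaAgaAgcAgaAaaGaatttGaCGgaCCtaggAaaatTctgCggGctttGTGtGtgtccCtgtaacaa
The transcript with the upstream exon took 54.4% of Snap25 TPM in mouse 2 and 54.0% in mouse 1. The transcript with the downstream exon took 44.5% in mouse 2 and 43.3% in mouse 1. The difference between both shares was thus larger than the spread between the mice, and the second quantification gave the same order. It put Snap25-202 at 53.3% in mouse 2 and 51.8% in mouse 1, and Snap25-201 at 45.5% in mouse 2 and 45.4% in mouse 1. These shares are per length and also use reads outside exon 5. The annotated transcripts are 1014 bases (Snap25-202) and 2116 bases (Snap25-201) long, and by counts Snap25-201 led, with 428 counts in mouse 2 and 446 in mouse 1 against 238 and 252 for Snap25-202.

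Of the 7 syntaxins of the plasma membrane group, 6 reached 1 TPM. Stx4a, the broadly expressed syntaxin of constitutive and insulin-stimulated fusion (chromosome 7, 127824294 to 127849019), stood far above the rest, with 32.9 TPM in mouse 2 and 32.2 TPM in mouse 1. Stx2, known from epithelia, had 8.25 TPM in mouse 2 and 7.18 TPM in mouse 1. Stx1a, the syntaxin of synaptic and chromaffin exocytosis, had 4.52 TPM in mouse 2 and 3.59 TPM in mouse 1. Stx1a was 12.1% of the TPM of its pair with Stx4a in mouse 2 and 10.0% in mouse 1. These shares, too, count all transcripts, and Stx1a was led by a retained-intron or decay transcript, as given below. Stx3 and Stx11 averaged 3.69 and 2.91 TPM.

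All 8 syntaxins of endosomes, Golgi and endoplasmic reticulum were at 10 TPM or more, the only syntaxin group of which this held. In the first quantification Stx7, of late endosomes (chromosome 10, 24149302 to 24190222), led with 43.8 TPM in mouse 2 and 40.7 TPM in mouse 1. In the second, Stx5a was above Stx7, with 36.0 against 30.5 TPM in mouse 2 and 32.8 against 24.5 TPM in mouse 1. Stx5a, of transport between endoplasmic reticulum and Golgi, had 33.8 TPM in mouse 2 and 31.5 TPM in mouse 1 in the first quantification. Stx17, which is recruited to autophagosomes, had 27.0 TPM in mouse 2 and 25.5 TPM in mouse 1. Below these 3 genes the levels lay close together. Stx12, of recycling endosomes, had 18.8 TPM in mouse 2 and 16.7 TPM in mouse 1. Stx16, of the trans-Golgi network, had 19.9 TPM in mouse 2 and 14.9 TPM in mouse 1. Means of these 2 genes in the first quantification, 17.8 ± 1.5 and 17.4 ± 3.5 TPM (SD, n = 2), differed by less than their spread. In the second, Stx16 was above Stx12, with 21.2 against 17.4 TPM in mouse 2 and 17.9 against 15.6 TPM in mouse 1. Stx6, also of the trans-Golgi network, had 16.4 TPM in mouse 2 and 14.8 TPM in mouse 1. Stx18, of the endoplasmic reticulum, had 12.2 TPM in mouse 2 and 11.1 TPM in mouse 1. Stx8, a partner of Stx7, closed the order with 11.8 TPM in mouse 2 and 11.4 TPM in mouse 1.

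Among the syntaxin-binding proteins, Stxbp2, the Munc18 form of epithelial and blood cells (chromosome 8, 3630955 to 3643644), had 37.4 TPM in mouse 2 and 27.5 TPM in mouse 1. Stxbp3, the form that binds Stx4, had 21.4 TPM in mouse 2 and 21.6 TPM in mouse 1. Means of both genes, 32.5 ± 7.0 and 21.5 ± 0.15 TPM (SD, n = 2), differed by more than the spread of either. Stxbp5, the tomosyn that holds syntaxin and SNAP-25 in an inactive complex, had 11.0 TPM in mouse 2 and 8.75 TPM in mouse 1. Stxbp6 and Stxbp4 averaged 4.23 and 3.60 TPM, and Stxbp5l averaged 0.67 TPM.

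Only Cplx2 of the 4 complexins passed 1 TPM. It had 8.39 TPM in mouse 2 and 7.20 TPM in mouse 1. Cplx1, the main complexin of many fast synapses, had 0.95 TPM in mouse 2 and 0.87 TPM in mouse 1. Of the summed TPM of both genes Cplx1 took 10.2% in mouse 2 and 10.8% in mouse 1. Cplx3 and Cplx4, known from retina, had no count.

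The synaptotagmins and Doc2 proteins divide into those that bind calcium and those that do not or are not known to. The highest level of all 20 was found for Syt12, a synaptotagmin that lacks calcium-binding residues (chromosome 19, 4445908 to 4477447), with 30.3 TPM in mouse 2 and 26.0 TPM in mouse 1. Of the calcium-binding group, Syt7, the slow, high-affinity sensor of neuroendocrine granules, led with 11.2 TPM in mouse 2 and 13.1 TPM in mouse 1. Doc2b, a soluble high-affinity sensor described in chromaffin cells, had 6.91 TPM in mouse 2 and 5.11 TPM in mouse 1. Their order held in both mice. Syt1, the fast sensor of synapses, had 4.09 TPM in mouse 2 and 3.53 TPM in mouse 1, which was 26.8% and 21.2% of the TPM of its pair with Syt7. Syt5 and Syt3 averaged 2.85 and 1.98 TPM. Syt9, Doc2a, Syt10, Syt2 and Syt6 stayed under 1 TPM in both mice, and Syt10, Syt2 and Syt6 had at most 9 counts in a mouse.

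Behind Syt12 in the other group came 3 genes of nearly the same level. Syt11 had 4.00 TPM in mouse 2 and 3.89 TPM in mouse 1. Syt14 had 3.73 TPM in mouse 2 and 4.02 TPM in mouse 1. Syt4, a synaptotagmin of dense-core vesicles, averaged 3.75 TPM. The order of these 3 genes differed between the mice, so none was set apart from the others. Syt17 averaged 1.87 TPM, and Doc2g, Syt13, Syt16 and Syt15 stayed under 1 TPM.

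**Figure D2:**
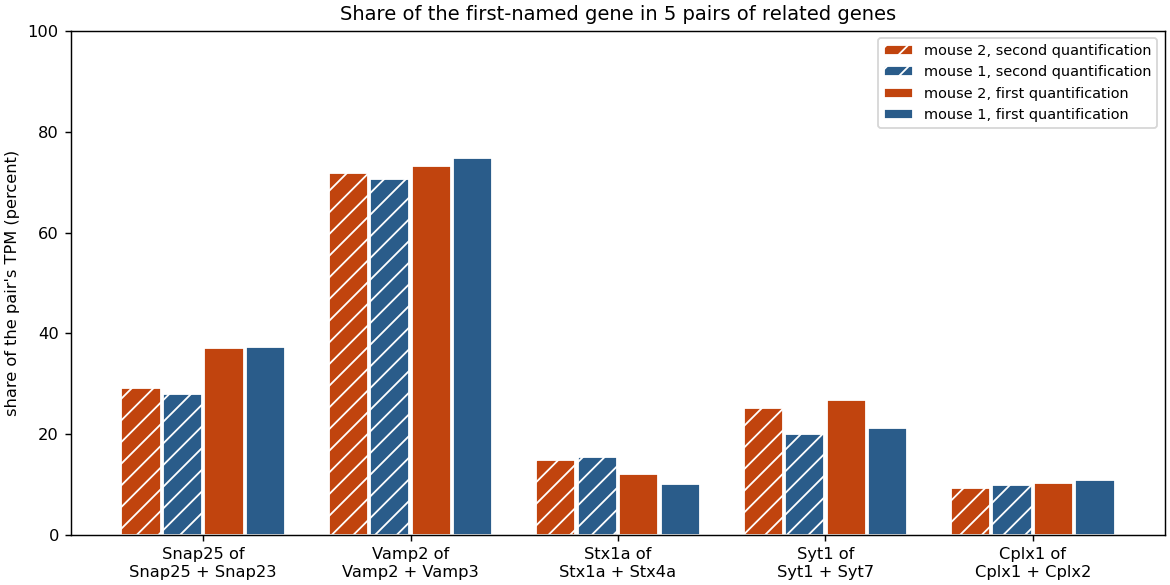
Share of the first-named gene, as a percent of the summed TPM, in 5 pairs of related genes, by mouse (orange mouse 2, blue mouse 1) and by quantification (hatched second, plain first). Vamp2 is the larger part of its pair in all 4 bars, while Snap25, Stx1a, Syt1 and Cplx1 are the smaller part of theirs in all 4. TPM here counts all transcripts of a gene, coding or not.

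Of the priming and active zone genes, Rims4 stood out. It encodes a short RIM that holds a C2 domain without the Rab3-binding part (chromosome 2, 163859751 to 163918683), and it had 54.5 TPM in mouse 2 and 44.5 TPM in mouse 1. Its 8708 counts in mouse 2 and 8816 in mouse 1 gave it the most counts of all 88 genes. Rims2, a RIM gene of neuroendocrine cells, had 14.4 TPM in mouse 2 and 19.9 TPM in mouse 1 over all its transcripts. Rims1, the main RIM of many central synapses, had 0.38 TPM in mouse 2 and 0.26 TPM in mouse 1. Unc13b, a Munc13 with wide expression, had 5.19 TPM in mouse 2 and 6.01 TPM in mouse 1. Levels of Rims3, Cadps2, Cadps and Unc13a lay close together, with means between 3.02 and 3.66 TPM. Cadps and Cadps2, the CAPS proteins of granule priming, averaged 3.15 ± 0.66 and 3.24 ± 0.16 TPM (SD, n = 2), a difference within their spread. Unc13d and Unc13c stayed under 1 TPM.

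All 8 genes of the Rab3 group passed 1 TPM, and all but 1 averaged 10 TPM or more. Rab3a, the Rab3 of synaptic vesicles and chromaffin granules (chromosome 8, 70754679 to 70758677), had 29.3 TPM in mouse 2 and 25.9 TPM in mouse 1. Rab3b had 13.3 TPM in mouse 2 and 14.6 TPM in mouse 1. Rab3d, known from exocrine granules, had 13.4 TPM in mouse 2 and 12.4 TPM in mouse 1. Rab3c had 10.6 TPM in mouse 2 and 10.4 TPM in mouse 1. In the first quantification the order was thus Rab3a, then Rab3b and Rab3d, whose spreads touch, then Rab3c. In the second, Rab3d averaged 9.95 TPM, near Rab3c (9.32 TPM) and below Rab3b (15.8 TPM). There Rab3c was above Rab3d in mouse 1, with 9.72 against 8.77 TPM. The retained-intron transcript Rab3d-205 took 21.2% of Rab3d TPM in mouse 2 and 43.2% in mouse 1 in the first quantification, and 0% in the second. Both subunits of the GTPase-activating complex of Rab3 were present, the noncatalytic Rab3gap2 with 18.4 TPM in mouse 2 and 16.2 TPM in mouse 1, and the catalytic Rab3gap1 with 17.5 TPM in mouse 2 and 16.6 TPM in mouse 1. Their means in the first quantification differed by less than their spread. In the second, Rab3gap1 was above Rab3gap2, with 21.8 against 16.7 TPM in mouse 2 and 21.8 against 15.0 TPM in mouse 1. Rab3ip, an exchange factor for Rab8, had 11.3 TPM in mouse 2 and 9.42 TPM in mouse 1, and the related Rab3il1 averaged 1.82 TPM.

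Of the 12 Rab GTPases that share only the first letters of the name, 8 passed 1 TPM. Rab34, which acts in the making of cilia, had 29.9 TPM in mouse 2 and 20.9 TPM in mouse 1. Rab35, of endocytic recycling, had 19.5 TPM in mouse 2 and 16.9 TPM in mouse 1. Rab31, of transport between Golgi and endosomes, had 14.7 TPM in mouse 2 and 13.0 TPM in mouse 1. Rab33a was the 1 gene of these 4 with a lower TPM in mouse 2, having 9.06 TPM in mouse 2 and 14.2 TPM in mouse 1. Averages of the remaining 8 lay between 0.11 and 6.61 TPM. Snap91 had 11.9 TPM in mouse 2 and 11.0 TPM in mouse 1.

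Expected counts scaled by TMM were compared between the mice, as a log2 ratio of mouse 2 over mouse 1, for genes that averaged 10 counts or more. Of the 88 genes, 79 were tested and 9 had too few counts. No gene was 2-fold higher or 2-fold lower in mouse 2, beside 1.14% of all 17666 tested genes 2-fold higher and 1.83% 2-fold lower (0.772% and 0.971% of nuclear protein-coding genes). The median ratio was −0.02 (95% interval −0.07 to 0.02 from the ordered genes, which are not replicates), beside −0.01 over all tested genes. Ratios lay above 0 for 37 genes and below 0 for 42, but for 45 and 34 under scaling by total counts. An exact two-sided binomial test of the counts, with Benjamini-Hochberg adjustment over all tested genes, found 17 genes (21.5%) beyond counting noise at 0.05, beside 21.3% of all tested genes and 22.4% of nuclear protein-coding ones. Of the 17, 6 were higher in mouse 2 (9.87% of all tested genes were) and 11 were lower (11.5% of all); under scaling by total counts the split was 9 higher and 7 lower. The share of exocytosis genes beyond counting noise was thus near the background and is no result about them as a group.

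**Figure D3:**
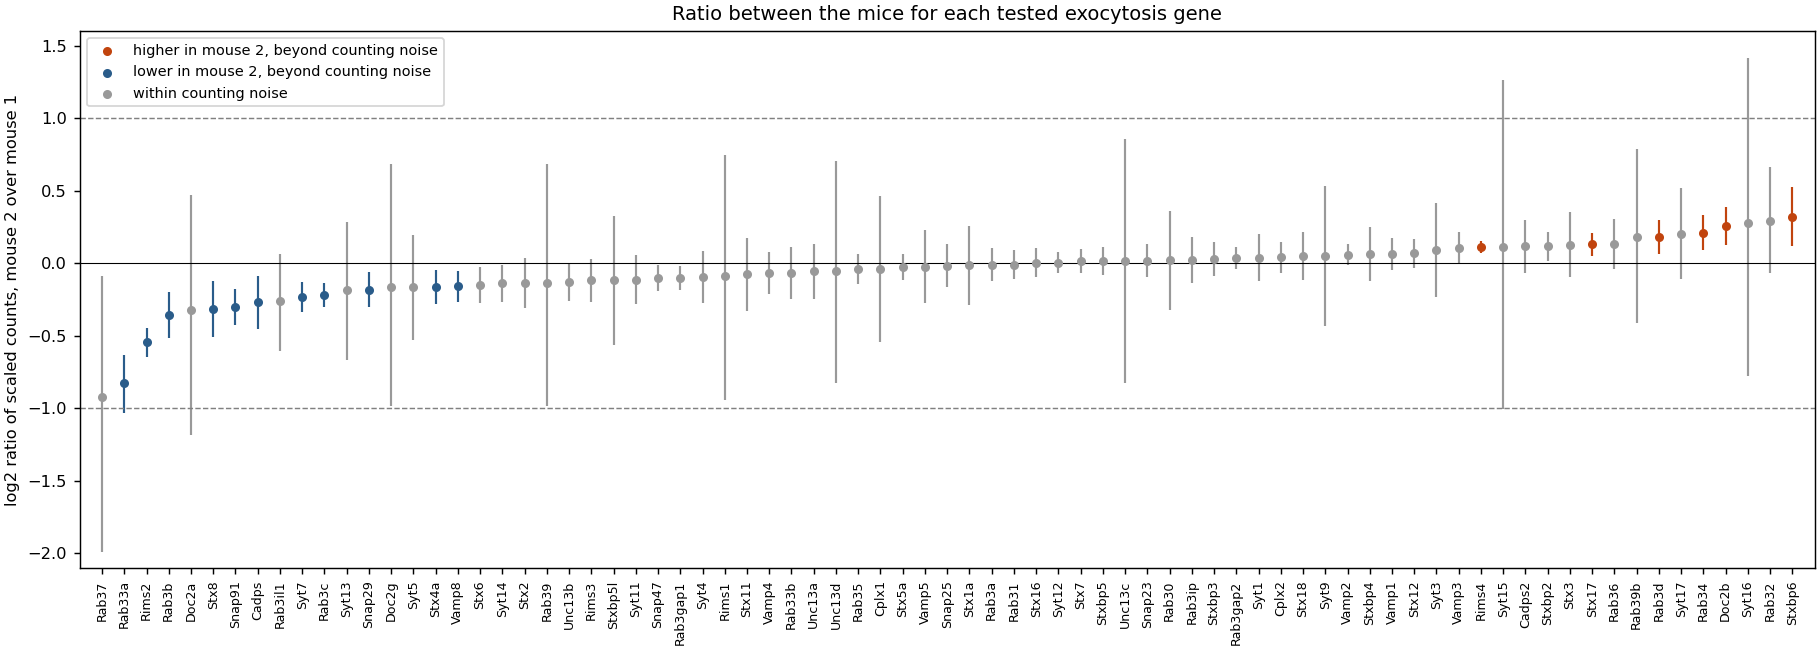
Log2 ratio of TMM-scaled counts, mouse 2 over mouse 1, for 77 of the 79 tested genes in order, with 95% counting intervals (not adjusted); colours mark genes beyond counting noise after adjustment and dashed lines mark 2-fold. Points lie between −0.92 and 0.32, and the widest bars belong to genes with few counts.

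The largest differences beyond counting noise were in genes lower in mouse 2. Rab33a, a small GTPase found on Golgi and transport vesicles, had 315 counts in mouse 2 and 613 in mouse 1, a log2 ratio of −0.83 (95% interval −1.03 to −0.63, adjusted p = 8.76e-16, exact binomial test). Rims2 had 1247 counts in mouse 2 and 1992 in mouse 1, a log2 ratio of −0.55 (−0.65 to −0.44, adjusted p = 2.05e-24, exact binomial test). Rab3b had 540 counts in mouse 2 and 756 in mouse 1, a log2 ratio of −0.36 (adjusted p = 0.000139, exact binomial test). Smaller differences in the same direction were found for Stx8 (−0.31), Snap91 (−0.30), Cadps (−0.27), Syt7 (−0.23), Rab3c (−0.22), Snap29 (−0.18), Stx4a (−0.16) and Vamp8 (−0.16). Rab37 had the lowest ratio of all, −0.92, on 15 counts in mouse 2 and 33 in mouse 1, and did not pass the test (adjusted p = 0.107, exact binomial test). Genes higher in mouse 2 were Stxbp6 (0.32), Doc2b (0.26), Rab34 (0.21), Rab3d (0.18), Stx17 (0.13) and Rims4 (0.11). Stxbp6 had 435 counts in mouse 2 and 381 in mouse 1 (adjusted p = 0.0109, exact binomial test), and Doc2b had 968 in mouse 2 and 886 in mouse 1 (adjusted p = 0.00134, exact binomial test). Under scaling by total counts Cadps, Snap29, Stx4a and Vamp8 no longer passed (adjusted p = 0.0739, 0.110, 0.187 and 0.158), and in the second quantification Rab3d, Stx4a and Vamp8 did not (adjusted p = 0.0767, 0.151 and 0.105, exact binomial tests).

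Among genes often linked to chromaffin exocytosis, which form no fixed list here, the calls differed. Rims2, Cadps and Syt7 were lower in mouse 2 and Doc2b was higher, while Snap25 (−0.02), Syt1 (0.04), Stx1a (−0.02), Cplx2 (0.04), Vamp2 (0.06) and Rab3a (−0.01) had ratios within counting noise, although Vamp2 passed under scaling by total counts (0.11, adjusted p = 0.0140, exact binomial test). A ratio within counting noise does not show that a gene failed to move with others. The 95% interval of Stx1a, for example, ran from −0.29 to 0.25. All 12 chromaffin markers had ratios below 0, with a median of −0.17, and 8 of the 12 were beyond counting noise. These markers ranged from −0.51 for Pnmt to −0.01 for Ddc. All 6 adipocyte markers were higher in mouse 2, with a median of 0.69, and summed to 2337 TPM in mouse 2 and 1398 TPM in mouse 1. Cortex markers, 8 in all, had a median of −0.09. The part of these cell types in the ratios of the exocytosis genes was not tested.

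The transcript tables give each transcript as a percent of its gene's TPM. Among the 36 genes of 10 TPM or more, the leading transcript took over 90% in both mice in 7 genes and under 50% on average in 11. The same transcript led in both mice in 33 of the 36, the exceptions being Stx16, Stx17 and Stx18, and in both quantifications in 32. Rims4 and Rab33a had 1 transcript with all of the TPM, and Vamp8-201 had 98.5% in mouse 2 and 98.6% in mouse 1. Vamp2-201 took 62.0% in mouse 2 and 60.1% in mouse 1, and Syt7-202 took 42.9% and 37.1%. Splitting of TPM over several transcripts was thus common in these genes.

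**Figure D4:**
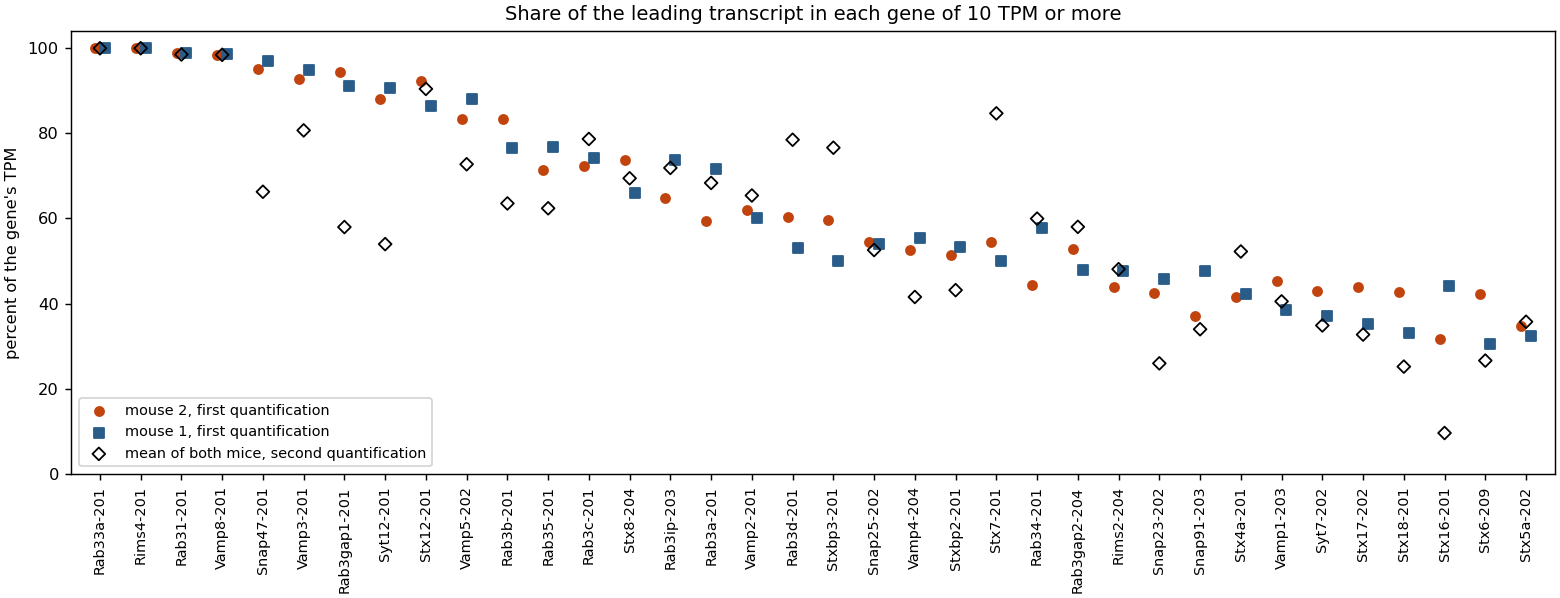
Percent of the gene's TPM in the leading transcript of each of the 36 genes at 10 TPM or more, with circles for mouse 2 and squares for mouse 1 in the first quantification and diamonds for the mean in the second. Circles and squares of a gene mostly lie close together, while some diamonds, as for Stx7-201, Syt12-201 and Stx16-201, lie far from them.

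In several genes much of the TPM was in transcripts annotated as non-coding. In Stx8 a processed transcript of 552 bases, Stx8-204, took 73.8% of the TPM in mouse 2 and 66.0% in mouse 1, and protein-coding transcripts together took 23.7% and 28.7%. The coding Stx8-201, of 4394 bases, had more counts, with 163 in mouse 2 and 253 in mouse 1, against 130 and 138 for Stx8-204. The TPM of Stx8 thus rests largely on a short transcript with fewer reads. In Snap23 the nonsense-mediated decay transcript Snap23-208 took 29.6% in mouse 2 and 31.6% in mouse 1, but 1.37% and 1.94% in the second quantification. Stx1a, which is under 10 TPM, was led by the retained-intron transcript Stx1a-205 in mouse 2 (43.1%, against 23.6% in mouse 1) and by the decay transcript Stx1a-204 in mouse 1 (20.2% in mouse 2, 42.0% in mouse 1). In Rims2, a processed transcript of 458 bases, Rims2-207, took 31.1% of the TPM in mouse 2 and 32.2% in mouse 1. The coding Rims2-204 held most of the counts of Rims2, with 746 in mouse 2 and 1387 in mouse 1. At the other end, coding transcripts made up 100% of the TPM of Vamp8, Stx16, Rims4 and Rab31 in both mice.

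The second quantification, made straight from reads and a transcript index, gave similar gene levels. Of the 65 genes that averaged 1 TPM or more, none was 2-fold apart, beside 0.68% of all genes 2-fold higher and 4.1% 2-fold lower in the second (0.388% and 0.47% of nuclear protein-coding genes). Only Stx7 was more than 1.5-fold apart, with a mean of 27.5 TPM in the second and 42.3 TPM in the first quantification. In that gene the leading Stx7-201 took 81.4% in mouse 2 and 88.0% in mouse 1 in the second, and 54.5% and 50.1% in the first. Syt12 was the highest in the second relative to the first, with 41.9 and 28.2 TPM. Its short non-coding Syt12-202, of 355 bases, took 37.1% in mouse 2 and 39.5% in mouse 1 in the second quantification, and 7.76% and 0.00% in the first. Snap23 had 32.8 TPM in the second and 22.9 TPM in the first quantification, and Stxbp3 had 14.7 and 21.5 TPM. Expected counts were whole in both mice for 84 of the 88 genes, and the exceptions were Stx5a, Stxbp3, Syt11 and Doc2g. Among genes that averaged 10 counts or more they were whole for 75 of 79, beside 84.4% of 14517 nuclear protein-coding genes.

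**Figure D5:**
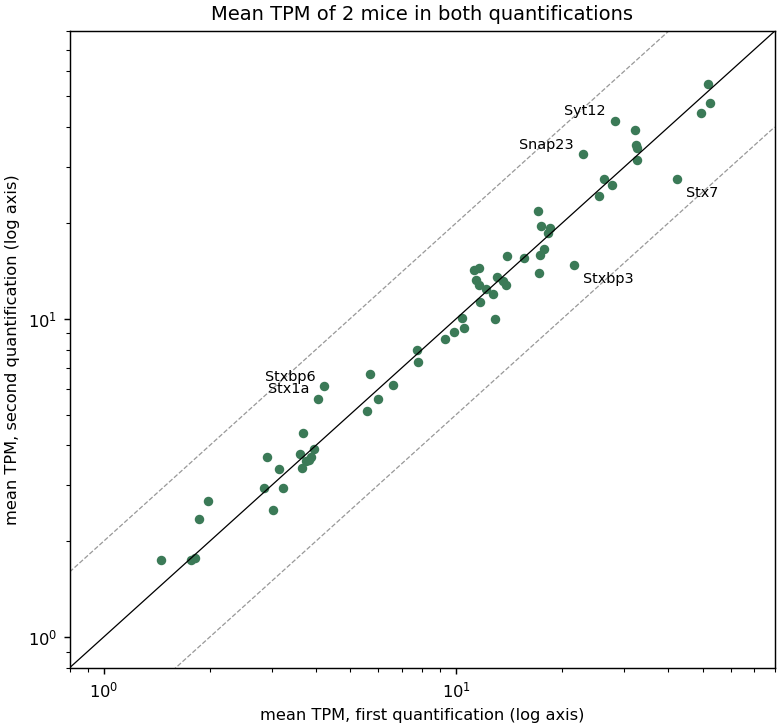
Mean TPM over both mice in the second quantification against the first, on log axes, for 63 of the 65 genes at 1 TPM or more; the solid line marks equality and the dashed lines 2-fold. All points lie between the dashed lines, with Stx7 (27.5 and 42.3 TPM) nearest to the lower and Syt12 (41.9 and 28.2 TPM) nearest to the upper line.

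Partners of the machinery outside the naming rule were also measured. The disassembly factors were complete, with 4 of 4 genes at 1 TPM, led by the adaptor Napa (54.0 TPM in mouse 2, 50.2 TPM in mouse 1) and the ATPase Nsf (50.9 and 44.5 TPM). All 10 other SNAREs, mostly of Golgi transport, passed 1 TPM, led by Use1 (67.0 TPM in mouse 2, 64.1 TPM in mouse 1) and Sec22b (48.6 and 61.4 TPM). Sec22b was the 1 gene of these beyond counting noise, with a log2 ratio of −0.35 (adjusted p = 1.17e-22, exact binomial test). All 9 exocyst subunits, which tether vesicles, passed 1 TPM, with Exoc3 (23.8 TPM in mouse 2, 20.0 TPM in mouse 1) and Exoc1 (22.6 and 19.0 TPM) highest and none beyond counting noise. The other Munc18-like proteins had 5 of 5 at 1 TPM, led by Scfd1 (25.5 and 23.1 TPM) and Vps33a (18.6 and 17.4 TPM), and 1 was lower in mouse 2.

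Of 11 genes of Rab27 and its effectors 8 passed 1 TPM, led by Rab27a (16.6 TPM in mouse 2, 16.5 TPM in mouse 1) and Rph3al (6.20 and 6.28 TPM), and 1, Rab27a, was beyond counting noise and lower in mouse 2 (−0.17). Of 9 active zone scaffold genes 7 passed 1 TPM, led by Ppfia1 (16.4 TPM in mouse 2, 14.5 TPM in mouse 1) and Erc1 (5.25 and 4.72 TPM), and 2, Pclo (−0.27) and Ppfia2 (−0.34), were lower. Of 18 vesicle membrane genes 14 passed 1 TPM, led by Scamp3 (33.9 TPM in mouse 2, 31.7 TPM in mouse 1) and Sypl (35.0 and 29.9 TPM), with 1 higher and 3 lower in mouse 2. Of 9 ferlins and other calcium sensors 4 passed 1 TPM, led by Esyt2 (15.9 TPM in mouse 2, 14.6 TPM in mouse 1) and Dysf (15.2 and 14.1 TPM), with 1 higher and 1 lower. Genes lower in mouse 2 beyond counting noise made up 11.5% of all tested genes.

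In the annotation, 37 of the 88 genes overlap a gene on the opposite strand, and for 12 of them that gene averaged 1 TPM or more. The sources used here do not say whether the counting used strand, so reads there cannot be assigned with certainty. Examples are Doc2a, which shares 1746 bases with Ino80e (13.0 TPM in mouse 2, 12.3 TPM in mouse 1), and Snap29, which shares 329 bases with Pi4ka (31.2 and 27.7 TPM). Stx19, with 0 counts in the first quantification, lies across Arl13b on the other strand, which had 4.51 TPM in mouse 2 and 4.20 TPM in mouse 1. A gene on the same strand overlaps 26 of the 88 genes, and strand cannot separate reads there. Vamp3, for example, shares 10664 bases with Camta1 (8.18 TPM in mouse 2, 7.59 TPM in mouse 1).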

How the data were processed

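Adrenal gland RNA of 2 female mice, 1 group, was sequenced. Per the labels, each directional library was made from 300 ng of total RNA with ribosomal RNA reduced and ERCC spike-in. Per the file headers, the tables use mm10 and GENCODE M21; aligner and quantifier are not given in the sources. The deposited gene and transcript tables (first quantification) hold expected counts, which are estimated counts from transcriptome alignments, together with TPM and FPKM. The deposited transcript tables also give each transcript as a percent of its gene. The other deposited transcript table (second quantification), made straight from reads, holds estimated counts and TPM and was summed to genes. CAST reads were placed on another strain's reference.

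Rows that name no gene, among them the ERCC rows (0.526% of counts in mouse 2, 0.502% in mouse 1), stayed out of library sizes and tests. Log2 ratios of mouse 2 over mouse 1 used TMM scaling of the expected counts (edgeR 4.0.16, R 4.3.3), a prior count of 2, a minimum average of 10 counts and a 2-fold threshold. The two-sided exact binomial test took rounded counts, with Benjamini-Hochberg adjustment over all 17666 tested genes. With 1 group of 2 mice no test between groups was possible, and this test compares 2 libraries. Reads carry no molecular identifiers, so intervals and floors speak for counting error alone. Quantifications were compared on TPM plus 0.1. The ratio and test were tested on simulated data. Python 3.11.15, pandas 2.3.3 and scipy 1.17.1 did the rest.

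The members and lists were chosen with earlier results of these data known. Both values are given for members of 10 TPM or more and for the 3 highest of each role, and for the 2 highest of each list of partners. Other members named, and the grouping of the other Rab genes, Snap91 and Vamp9, were chosen after their values were seen. A few further items are counted in the totals and are not reported here. Median-of-ratios scaling used DESeq2 1.42.0. Other alternatives were total count and ERCC scaling, other filters, prior counts, pseudocounts and TPM thresholds, FPKM, the second quantification and each mouse alone.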

Additional observations from a re-analysis of the deposited data

Results flagged for a closer look

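Vamp7, a vesicle SNARE of late endosomes and lysosomes, fell outside the naming rule because the second transcript table has no row for it. In the first gene table its row lies on the unplaced scaffold GL456233.1 (10738 to 39148, mm10), and it had 661 expected counts in mouse 2 and 818 in mouse 1, or 8.26 TPM in mouse 2 and 8.25 TPM in mouse 1. Its log2 ratio between the mice was −0.18. The pseudogene Vamp7-ps on chromosome 2 (174046619 to 174047273) had 0 counts in both mice in the first quantification and, in the second, 140 estimated counts in mouse 2 and 163 in mouse 1 (7.57 and 7.13 TPM). These values stand outside the comparisons above. Whether the reads counted for the pseudogene came from Vamp7 was not tested.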

How the results depend on the processing

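Under each alternative run for it, the number of genes at 1 TPM, 2-fold lower in mouse 2 or beyond counting noise moved by less than 1.5 times. Under total count scaling the median log2 ratio was 0.039, beside 0.047 over all genes. Stxbp2, Vamp2 and Vamp3 passed the binomial test under that scaling, Rab3gap1, Snap47 and Stx6 under ERCC scaling, and Rab3gap1 and Syt11 in the second quantification. With no filter on counts, 2 genes were 2-fold higher in mouse 2: Vamp9 (7 counts in mouse 2, 1 in mouse 1) and Syt6 (5 and 0). With no filter on TPM, 1 gene, Unc13d, was 2-fold apart between the quantifications (1.04 TPM in the second, 0.41 in the first). In the second quantification the mean share of the first-named gene of its pair was 28.5% for Snap25, 71.2% for Vamp2, 15.1% for Stx1a and 9.60% for Cplx1. Of 46 named levels, 20 moved by more than the spread between the mice in the second quantification (13 up, 7 down). In FPKM, which is another unit, 15 rose by more than that spread and 31 rose by less. Of 36 leading transcripts, 27 moved in their share in the second quantification (8 up, 19 down). The cause of the moves in that quantification was not tested. With 2 mice a value without 1 of them lies within the spread by construction. No paired analysis was possible because there is 1 group.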
